A study of Mus musculus with 8 samples.

Results

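The 10 genes described here encode the subunits of the hypoxia-inducible factors (HIF) and the enzymes that sense oxygen for them. They were chosen by name from the table of all genes, as the 3 alpha subunits Hif1a, Epas1 and Hif3a, the beta subunits Arnt and Arnt2, the prolyl hydroxylases Egln1, Egln2 and Egln3, the asparaginyl hydroxylase Hif1an and the ubiquitin ligase subunit Vhl. All 10 were found among the 54532 genes listed. RNA was sequenced from B cells taken from mouse bone marrow with magnetic beads, in 3 libraries from sham-operated mice (Sham) and 3 from ovariectomized mice (OVX). Ovariectomy, the surgical removal of the ovaries, serves as a model of estrogen deficiency after menopause, and the sham operation leaves the ovaries in place. No transgene or deletion is labelled for either group, and the labels of these libraries give no strain, age or time after surgery. The total was 23838775 to 33136701 counts per library. Reads of 12 general B cell genes held 1.00% to 1.15% of the counts in every library, Cd79a among them. Genes of neutrophils held 0.117% to 1.03%, with the highest share in Sham replicate 3, where the B cell genes held 1.00%. Genes of monocytes and macrophages held 0.0738% to 0.268%, of erythroid cells 0.0148% to 0.0512%, and of T and NK cells 0.00440% to 0.00813%. Those of basophils, mast cells and eosinophils held 0.00211% to 0.0159%. A list of 9 plasma cell genes held 0.0955% to 0.146%, unevenly over its members. Irf4 had 11126 to 16632 reads in a library, Jchain 2354 to 18185 and Tnfrsf17 5 to 32. How much of this share came from plasma cells was not tested.

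An alpha subunit pairs with a beta subunit to bind DNA and switch on genes that help a cell live with little oxygen. When oxygen is plentiful, the prolyl hydroxylases mark the alpha subunit, the VHL protein recognizes the mark and the subunit is destroyed, while the asparaginyl hydroxylase blocks its contact with coactivators. The HIF proteins are therefore known to be controlled mainly by their stability, and the RNA measured here does not report protein. Bone marrow is a tissue of low oxygen, and HIF-1α protein in marrow B cells was the subject of the study, which asked whether loss of estrogen changes it and what it does to bone.

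None of the 8 genes that could be tested passed the test between OVX and Sham, and the libraries of the groups overlapped for all 10. After a filter on low counts 8 of the 10 were tested, together with 15305 genes in all, with the quasi-likelihood test of edgeR and p-values adjusted after Benjamini and Hochberg, and 0 of the 8 were called at an adjusted p-value under 0.05, where 0% of all genes were called. None of the 8 had an unadjusted p-value under 0.05, against 3.75% of all genes tested. For none of the 10 did the 3 OVX libraries lie wholly above or below the 3 Sham libraries, against 8.44% of all genes tested. The log2 fold change, OVX over Sham, was fitted above 0 for all 8, from 0.026 for Hif1an to 0.66 for Epas1 with a median of 0.078, where 7371 of all genes tested were above 0 and 7934 below and their median was -0.0081. Scaling on the B cell genes in place of TMM factors left 3 of the 8 above 0, Epas1, Egln3 and Vhl, with a median of all genes of -0.092. The smallest p-value that an exact permutation test of 3 libraries against 3 can reach is 0.1, and the 10 genes had values from 0.2 to 0.7 (two-sided).

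**Figure D1:**
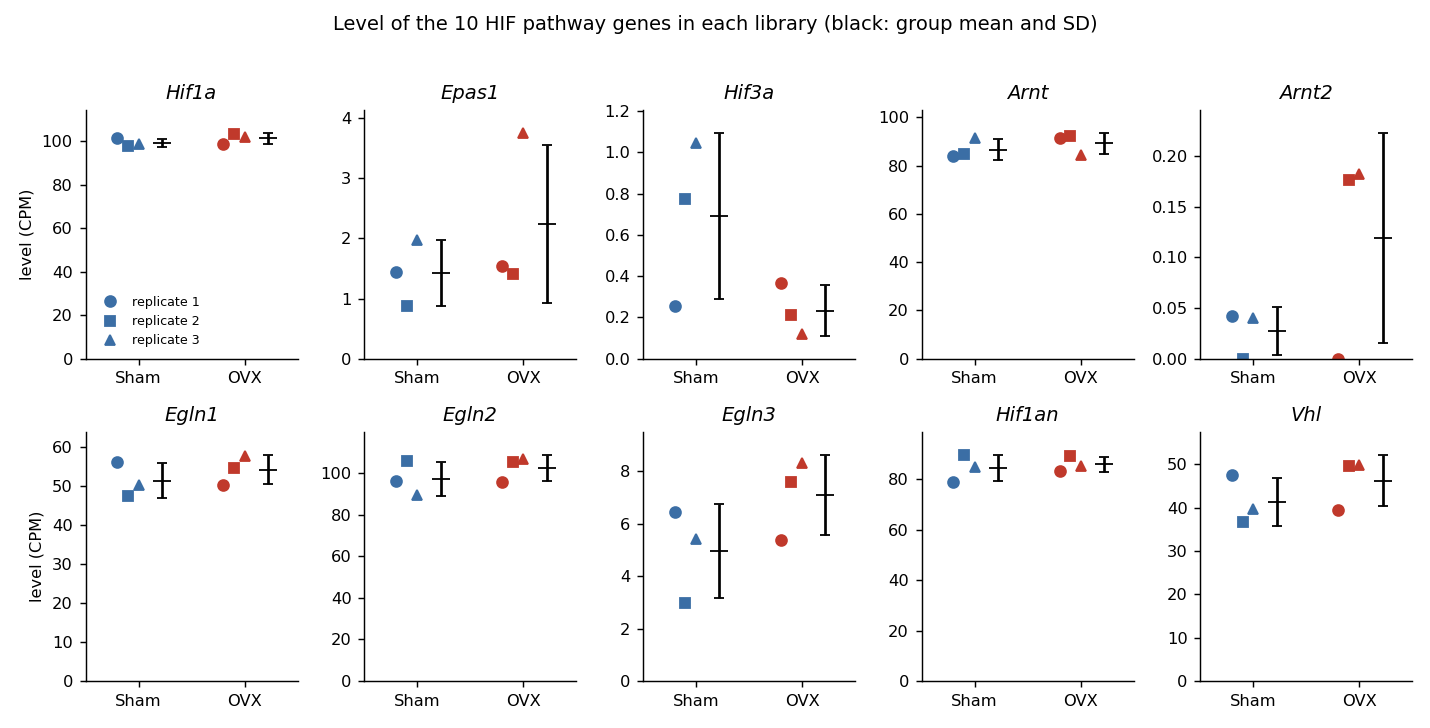
Level of each gene in each of the 6 libraries, in counts per 1000000 reads adjusted by TMM factors (CPM), on an axis from 0 for each gene. Points are libraries, by group and replicate number, and the black bars are the mean and SD of a group (n = 3). Hif1a sat between 97.9 and 103 CPM, while Epas1, Hif3a, Arnt2 and Egln3 were spread widely and the groups overlapped for every gene.

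Hif1a (ENSMUSG00000021109, at chr12:73901324-73947554 of GRCm38) encodes HIF-1α, the alpha subunit found in most cell types. It was counted with 2398, 2780 and 2450 reads in Sham libraries 1 to 3 and with 2420, 2932 and 3366 reads in OVX libraries 1 to 3. As counts per 1000000 reads of the library, adjusted by edgeR's TMM factors (CPM), these were 101, 97.9 and 98.6 in Sham and 98.6, 103 and 102 in OVX. The groups overlapped, and the highest library stood 1.06 times above the lowest. Group means were 99.2 ± 1.75 CPM for Sham and 101 ± 2.51 CPM for OVX (SD, 3 libraries each), with a log2 fold change of 0.030 (standard error, SE, 0.057, edgeR adjusted p = 0.896). Its 95% interval ran from 0.931 to 1.12 times the Sham level.

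Hif1a varied little among the libraries as well as between the groups. The coefficient of variation over the 6 libraries was 2.24%, and counting error alone at this depth gives 1.92%. Of the 1000 tested genes nearest in level, 1.1% varied as little or less, and their median coefficient of variation was 7.03%. A chi-square of the counts against equal levels, divided by its degrees of freedom, is 1 where counting error is the whole spread. It was 1.39 for Hif1a and had a median of 13.5 over those 1000 genes. With the library total alone as the scale the chi-square was 0.396 and the coefficient of variation 1.20%, and with scaling on the B cell genes they were 3.85 and 3.72%, where 6% of the genes nearest in level varied as little. The tested genes outside the lists with the profile closest to Hif1a were Brd2, Fam91a1 and Prpf4b, at root mean square distances of 0.0124, 0.0136 and 0.0142 between their centred log2 levels over 6 libraries. Within the much wider distance of 0.2 lay 54.5% of the tested genes outside the lists, where the log2 SD of Hif1a was 0.0322. How many genes lay nearly as close as these 3 was not counted.

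**Figure D2:**
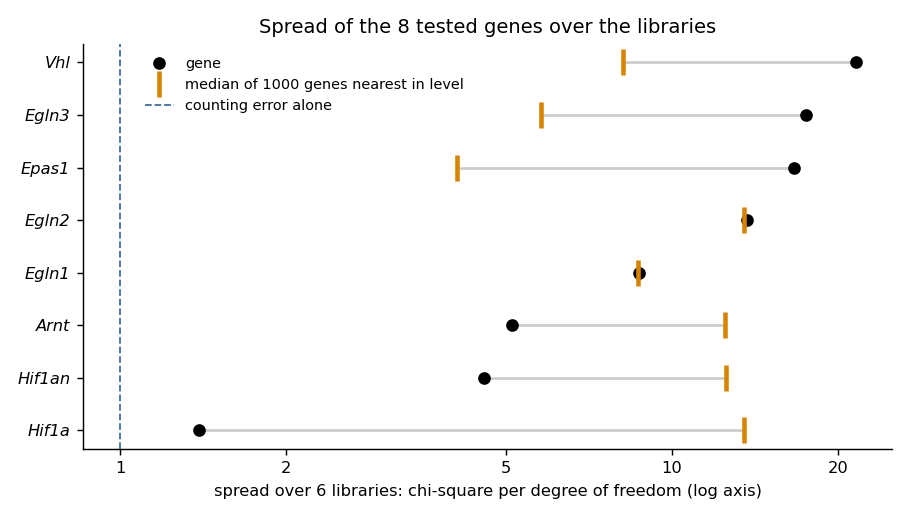
Spread of the 8 tested genes over the 6 libraries, as chi-square per degree of freedom of the counts against equal levels, on a log axis. Black points are the genes, orange ticks the median of the 1000 tested genes nearest in level, and the dashed line marks counting error alone. Hif1a at 1.39 lay near the line and Vhl, Egln3 and Epas1 lay above the medians of their neighbours, at 21.5, 17.5 and 16.6. Of the 1000 genes nearest in level, 80.3%, 77% and 85% had a coefficient of variation as small or smaller than these 3 genes.

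Epas1 (ENSMUSG00000024140, at chr17:86753864-86833410) encodes HIF-2α, an alpha subunit best known from endothelium and from the control of erythropoietin. It had few reads, 34, 25 and 49 in Sham libraries 1 to 3 and 38, 40 and 124 in OVX libraries 1 to 3. The levels were 1.44, 0.881 and 1.97 CPM in Sham and 1.55, 1.41 and 3.75 CPM in OVX. OVX replicate 3 stood apart from the other 5 libraries, among which OVX and Sham were mixed. The log2 fold change was 0.66 (SE 0.48, edgeR adjusted p = 0.811), with a 95% interval from 0.723 to 3.44 times the Sham level. Without OVX replicate 3 it was 0.055.

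The library with most Epas1 also had most transcripts of several other marrow cells. All 10 megakaryocyte genes, 15 of 18 endothelial genes and 9 of 12 stroma genes had their highest level in OVX replicate 3. The megakaryocyte genes held 0.0367% of its counts, against 0.0154% to 0.0236% in the other libraries, and the endothelial genes held 0.00792% against 0.00439% to 0.00658%. The endothelial share of 0.00658% was that of Sham replicate 2, where Epas1 was lowest. In that library 2 of the 18 endothelial genes, Stab1 and Stab2, were highest and 4 were lowest. Stab2 alone was at 27.5 CPM there and at 7.52 to 23.9 CPM in the other libraries. The endothelial marker Cdh5 was counted in every library, with 101 to 161 reads. Its level moved little, from 3.98 to 4.87 CPM, and Sox17 had at most 2 reads. The stroma genes held 0.0162% in OVX replicate 3 and 0.0152% in Sham replicate 2, where Epas1 was lowest. Most of the stroma share in Sham replicate 2 came from Lpl, at 129 CPM there and 92.5 CPM in OVX replicate 3. Of the 12 stroma genes 1, Lpl, was highest in Sham replicate 2 and 4 were lowest there. Cxcl12, for example, was at 12.0 CPM in Sham replicate 2 and 45.6 CPM in OVX replicate 3. The genes outside the lists with the closest profile were Il4, which encodes a cytokine, Ltbp1, a binding protein of latent TGF-β, and Antxr1, at distances of 0.111, 0.159 and 0.175 over 6 libraries. Il4 had a low level, from 0.247 to 1.12 CPM, and how far counting error shaped its distance was not tested. Of the genes 0.0265% lay within 0.2 of Epas1. Whether other cells contributed its reads was not tested, and in such bulk libraries fewer cells of a type and less RNA per cell cannot be told apart.

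Hif3a (ENSMUSG00000004328) encodes HIF-3α, whose short forms are known to restrain the other alpha subunits. It was counted with 6, 22 and 26 reads in Sham libraries 1 to 3 and with 9, 6 and 4 reads in OVX libraries 1 to 3, and it did not pass the filter on low counts. Sham replicates 2 and 3 stood above the other 4 libraries, and Sham replicate 1 lay among the OVX libraries. Fitted without the filter, its log2 fold change was -1.59 (SE 0.637, edgeR adjusted p = 0.801, unadjusted p = 0.0262). Group means were 0.691 ± 0.403 CPM for Sham and 0.233 ± 0.124 CPM for OVX (SD, 3 libraries each).

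Arnt (ENSMUSG00000015522) encodes HIF-1β, the shared partner of the alpha subunits. It was counted with 1986 to 2783 reads in a library. The level was 83.8, 84.7 and 91.5 CPM in Sham libraries 1 to 3 and 91.5, 92.1 and 84.2 CPM in OVX libraries 1 to 3. The groups overlapped closely, with a log2 fold change of 0.043 (SE 0.068, edgeR adjusted p = 0.878) and a 95% interval from 0.921 to 1.15 times the Sham level. Arnt2 (ENSMUSG00000015709), a close relative of Arnt known mainly from the nervous system, had 1, 0 and 1 reads in Sham libraries 1 to 3 and 0, 5 and 6 reads in OVX libraries 1 to 3, and was not tested. A count of 0 in Sham replicate 2 allows a level of up to 0.106 CPM, and the 2 highest levels were 0.176 and 0.182 CPM. No read of Sim1 or Npas3, which are also neural members of the family, was counted in any library.

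None of the 3 prolyl hydroxylase genes passed the test, and Egln3 was spread more widely over the libraries than Egln1 and Egln2. Egln1 (ENSMUSG00000031987) encodes PHD2, the main oxygen sensor for HIF-1α in most cells. It was at 56.1, 47.4 and 50.3 CPM in Sham libraries 1 to 3 and at 50.1, 54.6 and 57.7 CPM in OVX libraries 1 to 3, with a log2 fold change of 0.079 (SE 0.092). Egln2 (ENSMUSG00000058709), which encodes PHD1, was at 96.1, 106 and 89.8 CPM in Sham and at 95.6, 106 and 107 CPM in OVX, with a log2 fold change of 0.077 (SE 0.084). Their coefficients of variation were 7.63% and 7.15%, close to the medians of 7.77% and 7.03% of the genes nearest in level, and the 95% intervals were 0.910 to 1.23 and 0.921 to 1.21 times the Sham level.

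Egln3 (ENSMUSG00000035105, at chr12:54178981-54203874) encodes PHD3, known as a prolyl hydroxylase whose RNA is raised by hypoxia in many cells. It was counted with 153, 84 and 135 reads in Sham libraries 1 to 3 and with 132, 215 and 275 reads in OVX libraries 1 to 3. The levels were 6.46, 2.96 and 5.43 CPM in Sham and 5.38, 7.59 and 8.32 CPM in OVX. Sham replicate 2 was the lowest library and OVX replicates 2 and 3 the highest, while OVX replicate 1 lay just under Sham replicate 3. The log2 fold change was 0.52 (SE 0.32, edgeR adjusted p = 0.811), with a 95% interval from 0.860 to 2.41 times the Sham level. Without Sham replicate 2 it was 0.25, and it lay between 0.39 and 0.76 without any other library. The coefficient of variation was 31.6%, against a median of 18.8% for the genes nearest in level.

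The tested genes outside the lists closest to Egln3 were Phlda3, Rag1 and Tcf7l1, at distances of 0.0725, 0.0915 and 0.0945 over 6 libraries, and 0.305% of the genes lay within 0.2. Rag1 encodes the recombinase subunit that pro-B and pre-B cells use to rearrange their immunoglobulin genes. Its level was 1350, 581 and 975 CPM in Sham libraries 1 to 3 and 1074, 1516 and 1453 CPM in OVX libraries 1 to 3. Of 10 genes of pro-B and pre-B cells and 10 of mature B cells, lists written after the levels of Egln3 were seen, the first made up 0.163% of Sham replicate 2 and 0.196% to 0.312% in the other libraries. The second held 0.511% in Sham replicate 2 and 0.216% to 0.281% in the others, and 9 of its 10 genes were highest in that library. Of the 10 pro-B and pre-B cell genes only 5 were lowest in Sham replicate 2. The other 5 were lowest in Sham replicate 3, and 1 was highest in Sham replicate 2. Whether the mixture of B cell stages bears on Egln3 was not tested.

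**Figure D3:**
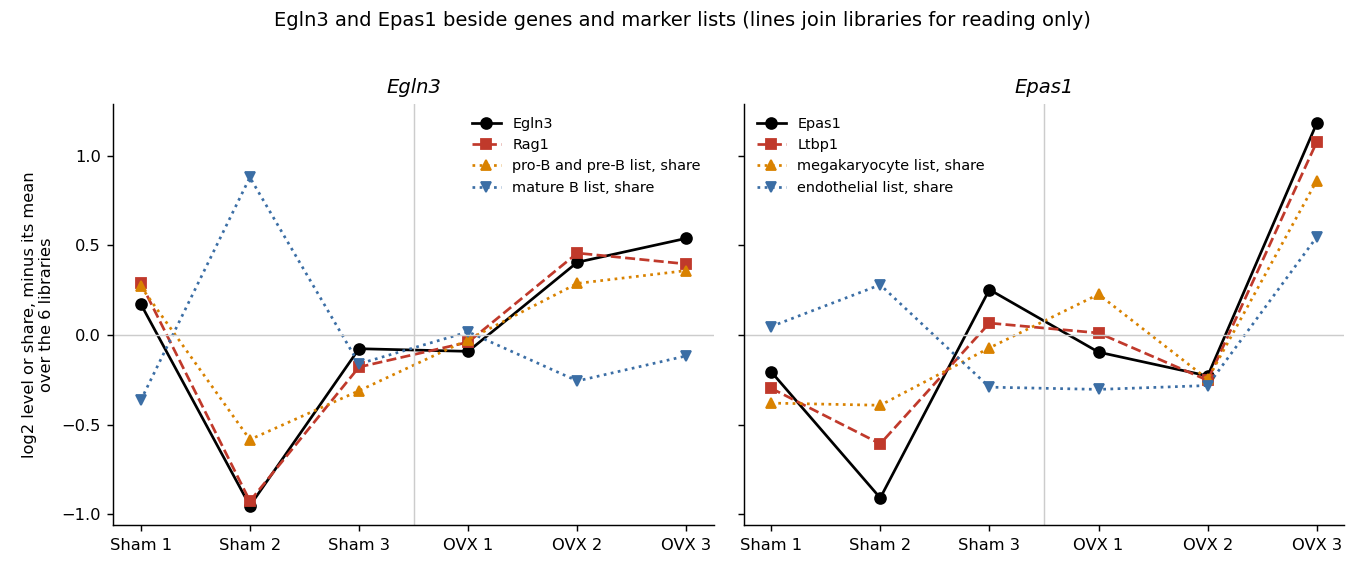
Log2 level of Egln3 (left) and Epas1 (right) in each library, minus its mean over the 6 libraries, beside a gene of similar profile and the share of counts held by marker lists on the same scale. Lines only join points of one gene or list. Egln3 and Rag1 were both lowest in Sham replicate 2, where the mature B cell share of 0.511% was highest, and Epas1, Ltbp1 and the megakaryocyte share were highest in OVX replicate 3.

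The start regions of these genes are shown because HIF is known to bind the 5 letters ACGTG or GCGTG and because the 3 hydroxylase genes differed in spread while Hif1a was steady. Windows of 300 bases, 250 before and 50 after an annotated start, were taken from RefSeq on GRCm38.p6, where 9 of the 10 genes had one or more, with Epas1 missing. In the sequences, written 5′ to 3′ on the gene's strand, capitals mark ACGTG or GCGTG on either strand, and CACGTG holds ACGTG on both strands. The windows are chr12:73907617-73907916 on the plus strand for Hif1a, a start inside the gene's annotated span, and on the minus strand chr8:124949205-124949504 for Egln1, chr7:27166753-27167052 for the upstream start of Egln2 and chr12:54203825-54204124 for Egln3.
Hif1a: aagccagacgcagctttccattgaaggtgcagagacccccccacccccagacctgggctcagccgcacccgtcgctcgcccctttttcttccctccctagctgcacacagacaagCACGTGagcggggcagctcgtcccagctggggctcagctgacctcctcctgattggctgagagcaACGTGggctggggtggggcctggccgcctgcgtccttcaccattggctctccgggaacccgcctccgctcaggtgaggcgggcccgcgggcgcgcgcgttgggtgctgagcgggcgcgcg
Egln1: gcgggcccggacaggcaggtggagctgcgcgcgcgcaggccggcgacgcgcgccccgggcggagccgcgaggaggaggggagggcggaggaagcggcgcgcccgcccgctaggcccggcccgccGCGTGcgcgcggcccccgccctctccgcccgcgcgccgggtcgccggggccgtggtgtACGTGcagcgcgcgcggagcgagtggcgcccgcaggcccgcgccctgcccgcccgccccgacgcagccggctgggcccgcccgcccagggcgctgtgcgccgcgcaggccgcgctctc
Egln2: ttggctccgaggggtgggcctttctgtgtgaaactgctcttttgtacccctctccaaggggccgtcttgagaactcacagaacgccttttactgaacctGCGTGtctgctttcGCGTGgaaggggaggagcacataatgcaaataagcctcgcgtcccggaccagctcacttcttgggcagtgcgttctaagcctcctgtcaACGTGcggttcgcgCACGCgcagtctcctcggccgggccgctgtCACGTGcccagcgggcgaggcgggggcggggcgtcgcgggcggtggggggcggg
Egln3: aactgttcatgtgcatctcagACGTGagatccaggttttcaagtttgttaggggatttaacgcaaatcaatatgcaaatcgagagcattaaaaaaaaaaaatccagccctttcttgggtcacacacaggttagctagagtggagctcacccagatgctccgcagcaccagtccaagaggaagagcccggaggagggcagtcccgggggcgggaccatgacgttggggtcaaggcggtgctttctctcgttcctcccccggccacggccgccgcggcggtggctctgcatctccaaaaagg

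The upstream Egln2 window held 3 matches to ACGTG and 3 to GCGTG, with 2 of the ACGTG matches being the 2 strands of 1 CACGTG, and 1.66% of all 32851 windows held 5 or more matches. Hif1a had 3 matches to ACGTG, likewise with 1 CACGTG, Egln1 had 1 match to each, and Egln3 had 1 match to ACGTG. Of the other genes, Hif3a had 2 matches to GCGTG, Arnt had 1 and the second Egln2 start had 1, while the windows of Arnt2, Hif1an and Vhl held neither. A window with ACGTG or GCGTG was common, at 43.8% of all windows. The GC content was 86.0% for Egln1, with 60 CpG pairs, and 54.7% for Egln3, with 16 CpG pairs, where the median window had 52.7% and 7 pairs. A match describes the letters of this window only. On GRCm38 the other genes lie with Hif3a at chr7:17030993-17062427, Arnt at chr3:95434367-95497240, Arnt2 at chr7:84246274-84411741, Egln1 at chr8:124908587-124949254, Egln2 at chr7:27158658-27166802, Hif1an at chr19:44562854-44576274 and Vhl at chr6:113623994-113631634.

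Hif1an (ENSMUSG00000036450) encodes FIH, the asparaginyl hydroxylase that limits the activity of HIF-1α. It was at 79.0, 89.5 and 84.7 CPM in Sham libraries 1 to 3 and at 83.5, 89.1 and 85.3 CPM in OVX libraries 1 to 3, so that each group covered nearly the same range. The log2 fold change was 0.026 (SE 0.069, edgeR adjusted p = 0.926), with a 95% interval from 0.909 to 1.14 times the Sham level. Vhl (ENSMUSG00000033933) encodes the subunit that recognizes hydroxylated HIF-1α. Its level was 47.6, 36.8 and 39.7 CPM in Sham libraries 1 to 3 and 39.4, 49.6 and 49.8 CPM in OVX libraries 1 to 3. The log2 fold change was 0.16 (SE 0.13, edgeR adjusted p = 0.811), with a 95% interval from 0.902 to 1.39 times the Sham level.

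Vhl ranked the 6 libraries in the same order as Egln3, from Sham replicate 2 through OVX replicate 1, Sham replicate 3, Sham replicate 1 and OVX replicate 2 to OVX replicate 3. In that order OVX replicate 1 and Sham replicate 3 differed by 0.159 counting errors for Vhl and 0.0834 for Egln3, and OVX replicates 2 and 3 by 0.0808 and 1.02, so these neighbours were not separated. The step up to Sham replicate 1 was 4.16 counting errors for Vhl but 1.47 for Egln3, and the step from Sham replicate 2 to OVX replicate 1 was 4.25 for Egln3 but 1.54 for Vhl, so no single step was wide in both genes. This likeness was noticed in the values and was not tested. Egln1 had the same order except that Sham replicate 1 and OVX replicate 2 changed places. The range was narrower, at 1.35 times from lowest to highest for Vhl and 1.22 times for Egln1, against 2.81 times for Egln3. Under scaling on the B cell genes the chi-square per degree of freedom of Vhl was 9.64, against 21.5. With that scaling 47.7% of the 1000 genes nearest in level had a coefficient of variation as small or smaller, against 80.3% with TMM factors.

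**Figure D4:**
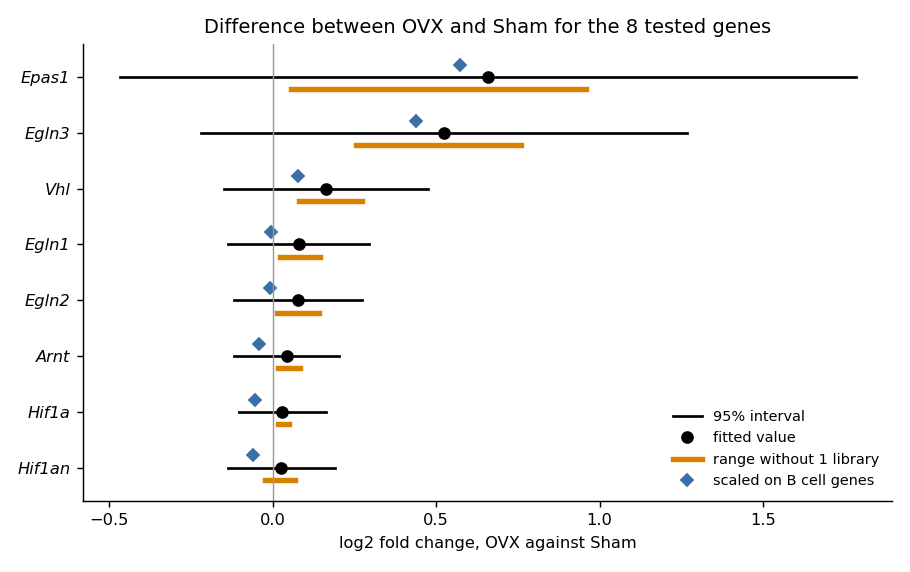
Log2 fold change of OVX against Sham for the 8 tested genes, with the fitted value (point), its 95% interval (line), the range over the 6 fits that each left out 1 library (orange bar) and the value under scaling on the B cell genes (diamond). Every interval included 0, the one of Hif1a being narrowest, and the diamonds of 5 genes lay just below 0.

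Ratios of 2 genes within a library do not depend on how libraries are scaled. The log2 ratio of Hif1a to Vhl counts was 1.09, 1.41 and 1.31 in Sham libraries 1 to 3 and 1.32, 1.06 and 1.03 in OVX libraries 1 to 3, a difference of -0.13 between the group means. That of Hif1a to Egln1 counts was 0.850, 1.05 and 0.971 in Sham and 0.975, 0.922 and 0.821 in OVX, a difference of -0.050. The groups overlapped for each ratio. The ratio of Epas1 to Hif1a differed by 0.54, or by 0.096 without OVX replicate 3 and 0.24 without Sham replicate 2, and that of Egln1 to Egln2 by 0.0005. The p-values of the 4 ratios were 0.3, 0.5, 0.5 and 1 (two-sided exact permutation tests), or 0.667 for the first 3 after adjustment over the 4. These ratios compare libraries, and levels of different genes are not compared with each other here, as counts were not scaled by transcript length.

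None of the partners of VHL in its ubiquitin ligase passed the test. Of 9 genes 8 had a log2 fold change above 0 and 0 were called, with a median of 0.096, and 6 were above 0 with scaling on the B cell genes. The values ran from -0.036 for Cul2, the scaffold of the ligase, to 0.26 (SE 0.13) for Elob, its adaptor. Elob was lowest in Sham replicate 2, at 71.2 CPM, and between 81.3 and 108 CPM in the other libraries. Of 16 chaperones and other proteins that act on HIF-1α stability 12 were above 0, or 5 with scaling on the B cell genes, and 0 were called, with a median of 0.047, or -0.038 with that scaling. Hsp90aa1 and Hsp90ab1, which encode the HSP90 proteins that protect HIF-1α, had log2 fold changes of 0.049 (SE 0.081) and -0.020 (SE 0.078). Os9, whose protein is known to bind the prolyl hydroxylases, had the lowest value of the list, -0.10 (SE 0.062). The OVX libraries lay wholly below the Sham libraries for 1 of the 16, Os9, and wholly above for 0. The shares over all genes tested were 4.12% below and 4.33% above. For Os9 the nearest libraries were close, with Sham replicate 2 at 158 CPM and OVX replicate 3 at 155 CPM.

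The highest value of the list belonged to Hspa1b, for which, as for Hspa1a, the libraries of one group differed from each other several-fold. Hspa1b was at 22.7, 2.64 and 4.14 CPM in Sham libraries 1 to 3 and at 8.96, 13.4 and 22.3 CPM in OVX libraries 1 to 3, and Hspa1a was at 4.22, 0.282 and 0.523 CPM in Sham and 1.91, 1.98 and 3.24 CPM in OVX. Both were highest in Sham replicate 1 and lowest in Sham replicate 2, and the groups overlapped. The log2 fold changes were 0.60 (SE 0.77) and 0.52 (SE 0.88). The genes are near-identical copies that encode HSP70, so the split of reads between them is uncertain. Siah2, a ligase that degrades prolyl hydroxylases, was named after its values were seen. It was the only 1 of these 16 genes at an unadjusted p-value under 0.05, against 3.75% of all genes tested. Its log2 fold change was 0.32 (SE 0.13, edgeR unadjusted p = 0.0448, adjusted p = 0.811). The groups overlapped, with OVX replicate 1 at 22.3 CPM and Sham replicate 1 at 23.1 CPM.

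None of the coactivators and inhibitors of HIF passed the test. Of 12 genes 11 were tested and 0 called, 7 were above 0, or 1 with scaling on the B cell genes, and the median was 0.032, or -0.055 with that scaling and -0.019 without Sham replicate 2. Crebbp, one of the acetyltransferases that HIF-1α recruits, was at 125 to 134 CPM in Sham and 139 to 152 CPM in OVX without overlap, a log2 fold change of 0.16 (SE 0.066, edgeR adjusted p = 0.811). Cdk8, a kinase gene of the Mediator complex named after its values were seen, lay the other way without overlap. It was at 54.2 to 57.9 CPM in Sham and 47.6 to 53.7 CPM in OVX, with a log2 fold change of -0.13 (SE 0.075). Its nearest libraries were close, Sham replicate 2 with 1538 reads (54.2 CPM) and OVX replicate 1 with 1319 reads (53.7 CPM). So 1 of the 11 lay wholly above and 1 wholly below, against 4.33% and 4.12% of all genes tested. Cited4, which competes for the same acetyltransferases, had the lowest value, -0.32 (SE 0.39). Among 11 other factors of the bHLH-PAS family, to which the HIF subunits belong, only 4 had enough reads to be tested and 0 were called, with 1 above 0 and a median of -0.18. With the neutrophil share as a covariate 3 of the 4 were above 0 and the median was 0.10, and without Sham replicate 3 or OVX replicate 3 the 4 were split 2 and 2. The OVX libraries lay wholly above the Sham libraries for 1 of the 4, the clock gene Bmal1, and wholly below for 0. Over all genes tested these shares were 4.33% and 4.12%. Bmal1 was at 119 to 156 CPM in Sham and 161 to 195 CPM in OVX, a log2 fold change of 0.46 (SE 0.13, edgeR adjusted p = 0.811). Its partner Clock had the lowest value of the list, -0.39 (SE 0.20), with 21.7 to 37.6 CPM in Sham and 19.1 to 23.6 CPM in OVX.

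Of 17 other dioxygenases that use oxygen 15 were tested, 8 were above 0, or 6 with scaling on the B cell genes, and 0 were called, with a median of 0.044, or -0.039 with that scaling. The values ran from -0.47 (SE 0.45) for P4htm, a membrane prolyl hydroxylase with 9 to 31 reads, to 0.29 (SE 0.24) for the DNA demethylase gene Tet1. The OVX libraries lay above the Sham libraries for 3 of the 15, the histone demethylase genes Kdm3a, Kdm4b and Kdm5a, named after their values were seen, and below for 0, against 4.33% and 4.12% of all genes tested. Kdm3a, also a HIF target gene, was at 105 to 110 CPM in Sham and 118 to 128 CPM in OVX, a log2 fold change of 0.20 (SE 0.060, edgeR adjusted p = 0.811).

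HIF target genes had values on either side of 0, and none passed the test. Of 28 genes 13 had a log2 fold change above 0 and 15 below, or 9 and 19 with scaling on the B cell genes, the median was -0.070 and 0 were called, with 1 higher and 1 lower at an unadjusted p-value under 0.05, against 1.47% and 2.28% of all genes tested. The median was 0.0099 without Sham replicate 2 and 0.0080 without OVX replicate 1, with 14 genes above 0 and 14 below in each case. The OVX libraries lay wholly above the Sham libraries for 1 of the 28, Kdm3a, and wholly below for 3, Car9, Car12 and Ldha. The shares over all genes tested were 4.33% above and 4.12% below. Car9 and Ldha were named after their values were seen. Car9 was at 2.03 CPM (48 reads) in Sham replicate 1 and 1.87 CPM (46 reads) in OVX replicate 1. The gene higher at an unadjusted p-value under 0.05 was Kdm3a. The lower one was Car12, a carbonic anhydrase gene with 25 to 67 reads and a log2 fold change of -1.0 (SE 0.32, edgeR adjusted p = 0.811). Egln3 had the second highest value of the list, after Trf, the transferrin gene, at 0.63 (SE 0.59). Anxa2, a membrane-binding annexin gene, had the lowest, -1.27 (SE 0.60). It was at 22.5, 38.5 and 81.7 CPM in Sham libraries 1 to 3 and at 36.1, 10.1 and 13.0 CPM in OVX libraries 1 to 3. The 18 neutrophil genes held 0.267%, 0.371% and 1.03% of the counts in these Sham libraries and 0.434%, 0.117% and 0.126% in the OVX libraries, where Sham replicate 3 was highest and OVX replicates 2 and 3 lowest, as for Anxa2. Each of the 18 neutrophil genes peaked in Sham replicate 3, and the part of neutrophils in this value was not tested.

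**Figure D5:**
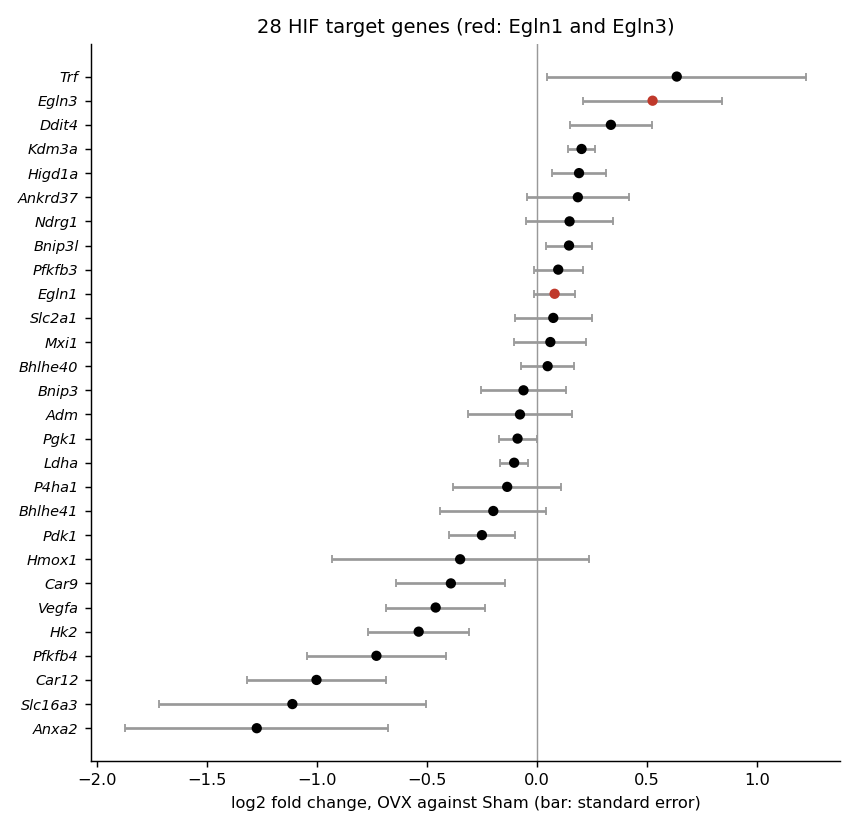
Log2 fold change of OVX against Sham for 28 HIF target genes, with bars for the standard error, Egln1 and Egln3 in red. Of the genes 13 lay above 0 and 15 below, from -1.27 for Anxa2 to 0.63 for Trf.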

How the data were processed

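RNA was sequenced from bone marrow B cells, sorted with magnetic beads, in 3 libraries from sham-operated and 3 from ovariectomized mice, grouped by their labels. Whether each library came from a separate mouse is not labelled, so p-values measure only the spread between these libraries, which may be technical. Per the labels, RNA was extracted with Trizol and libraries made with the Illumina TruSeq kit. The authors deposited raw counts per Ensembl gene for the 6 libraries. The submitters' processing notes name CASAVA, Bowtie 0.12.2 and mm10, while the counting tool and its strand setting are not given in the sources used here, so reads of overlapping genes on opposite strands cannot be told apart. No HIF-1α ChIP data were analysed here.

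Of 54532 gene identifiers 54409 were matched to a symbol. Counts were filtered with filterByExpr, scaled with TMM factors and fitted by group with edgeR 4.0.16 (glmQLFit and glmQLFTest, R 4.3.3), with Benjamini-Hochberg adjustment over all 15305 genes tested and a threshold of 0.05. Standard errors were the absolute log2 fold change over the square root of F. Ratios of members within a library had 0.5 added to each count and were compared by exact permutation. Alternatives were DESeq2 1.42.0, limma-voom 3.58.1, other scalings, filters, a pseudocount of 1, a neutrophil covariate, a replicate block and leaving out each library. The script was tested on simulated counts. The limit from a count of 0 (3 counts) covers counting error only. Promoter windows came from the RefSeq table on GRCm38.p6, which is mm10. Members and gene lists were chosen with earlier results of these data known. Besides the 10 members, the genes named were the highest and lowest of each pathway list, Hspa1a, Hsp90aa1 and Hsp90ab1, and the 3 genes with the profile nearest to Hif1a, Epas1 and Egln3, while others were named after their values were seen.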

Additional observations from a re-analysis of the deposited data

How the results depend on the processing

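Under 16 alternatives no member was called, no gene of the whole table was called, and of 128 member fold changes 8 changed sign. With scaling on the B cell genes the log2 fold changes were -0.054 for Hif1a, -0.042 for Arnt, -0.061 for Hif1an, -0.0036 for Egln1 and -0.0077 for Egln2, as this scaling lowers the median of all genes to -0.092. With the neutrophil share as a covariate Egln2 was at -0.0080. Hif1an was at -0.023 without Sham replicate 1 and at -3.8e-05 without OVX replicate 2, in a range from -0.023 to 0.068 with 1 library left out. The number of members at an unadjusted p-value under 0.05 was 1 in place of 0 with no filter and with a mean of at least 10 counts, in each case Hif3a, and ran from 0 to 1 when 1 library was left out, being 1 without Sham replicate 1 or OVX replicate 1. Hif3a also entered the fits without Sham replicate 3, OVX replicate 2 or OVX replicate 3, with unadjusted edgeR p-values of 0.146, 0.0983 and 0.125. The log2 ratio of Egln1 to Egln2 differed by -0.12 to 0.075 with 1 library left out, below 0 without Sham replicate 2, and by -0.017 without OVX replicate 3. The other ratios kept their sign, from -0.22 to -0.061 for Hif1a to Vhl, -0.10 to -0.0043 for Hif1a to Egln1 and 0.096 to 0.81 for Epas1 to Hif1a. Left-out fits gave 0.055 to 0.96 for Epas1, 0.25 to 0.76 for Egln3 and 0.081 to 0.27 for Vhl. Genes at an unadjusted p-value under 0.05 numbered 574, against 1269 without a filter, 186 with the neutrophil covariate, 206 with the replicate block and 233 to 2698 with 1 library left out, highest without Sham replicate 1. The cause of these moves was not tested. Same-numbered libraries had correlations of -0.39, -0.17 and -0.26 in their deviations from the group means, so they were not alike by number. With 3 libraries per group these values cannot settle whether same-numbered libraries were prepared together. A replicate block called 0 members and kept the sign of all 8. Depth limits Hif3a and Arnt2 most, with at most 26 and 6 reads in a library.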
